A study of Mus musculus with 15 samples.

Results

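The wide accessible regions are those intervals of the deposited ATAC-seq region set that span 1500 bp or more from start to end. They number 5345 of 43020 regions (12.4%). They were chosen by width alone, from the coordinates in the region names, and the counts were not used in the choice. The names carry the label ALL_samples, so the regions may have been called on reads of these same lines. Width may then depend on signal in them, deeper libraries weighing more, and this was not tested. All 5345 passed the filter on low counts, as did 34607 of the 37675 narrower regions, which serve for comparison. Shares given below as a background are over all 39952 tested regions, the wide ones included.

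ATAC-seq measures open chromatin by letting a transposase cut and tag DNA that is not packed into nucleosomes, and the number of tagged fragments in a region is read as its accessibility. The samples were 15 organoid lines of mouse colon cancer, in 5 groups of 3, made to follow tumour lines through repeated transplantation into the colon. All lines carried the genotype labelled AKP, all recipients were C57Bl6 mice, and no untransplanted or wild-type line was among them. Met1, Met2 and Met3 were grown from liver metastases of rounds 1, 2 and 3, and Primary2 and Primary3 from primary tumours of rounds 2 and 3. Metastases and primaries were therefore set against each other in rounds 2 and 3 only. The lines are cultured organoids without the stroma of a tumour, and how they descend from one another was not analysed here. All p-values thus measure the spread among these lines.

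A promoter or an enhancer usually opens over a short stretch that frees a few nucleosomes. Wide open intervals are known to arise at large promoters rich in CpG, where transcription can start at many positions, and where several enhancers lie so close together that a peak caller joins them. Such clusters of enhancers are often found near genes that define a cell's identity. Which of these the wide regions are was not analysed here, since no mm9 gene annotation was used. Regions are therefore given by the authors' peak names and by their mm9 coordinates as deposited, and no gene or marker of colon tissue could be assigned to them.

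The wide regions were 1500 to 6777 bp wide, with a median of 1838 bp. Of these, 206 spanned 3000 bp or more. No gap in width marks the threshold, with 9 regions at 1499 bp and 11 at 1500 bp. Just inside it lay peak_3759 (chromosome 1, 134035429 to 134036929) with 34.4 CPM (counts scaled for the size of the library, mean of the 15 lines) and peak_7870 (chromosome 10, 66746932 to 66748432) with 23.2 CPM. Just outside lay peak_7143 (chromosome 10, 42211115 to 42212614) with 13.2 CPM and peak_18536 (chromosome 12, 15822601 to 15824100) with 37.9 CPM. Together the wide regions made up 28.0% of all bases in the region set. None of the 43020 regions lay closer than 801 bp to the next, and the median gap from a wide region to its nearest neighbour was 7468 bp, against 6871 bp for the tested narrower regions.

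Among tested regions, a wide region held more signal than a narrower one but was not denser. Narrower regions that failed the filter on low counts are left out of the medians given here. The median was 35.2 CPM per wide region and 12.8 CPM per other region, whereas per length the medians were 18.3 and 18.6 CPM per kb. The wide regions ranged from 2.60 to 197.3 CPM per kb. The authors' own region score, of unstated scale, had a median of 30.7 in the wide regions and 23.9 in the others, and 941 wide regions (17.6%) scored under 10. The wide set thus mixes dense and sparse stretches, and its greatest width did not coincide with its highest density.

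**Figure D1:**
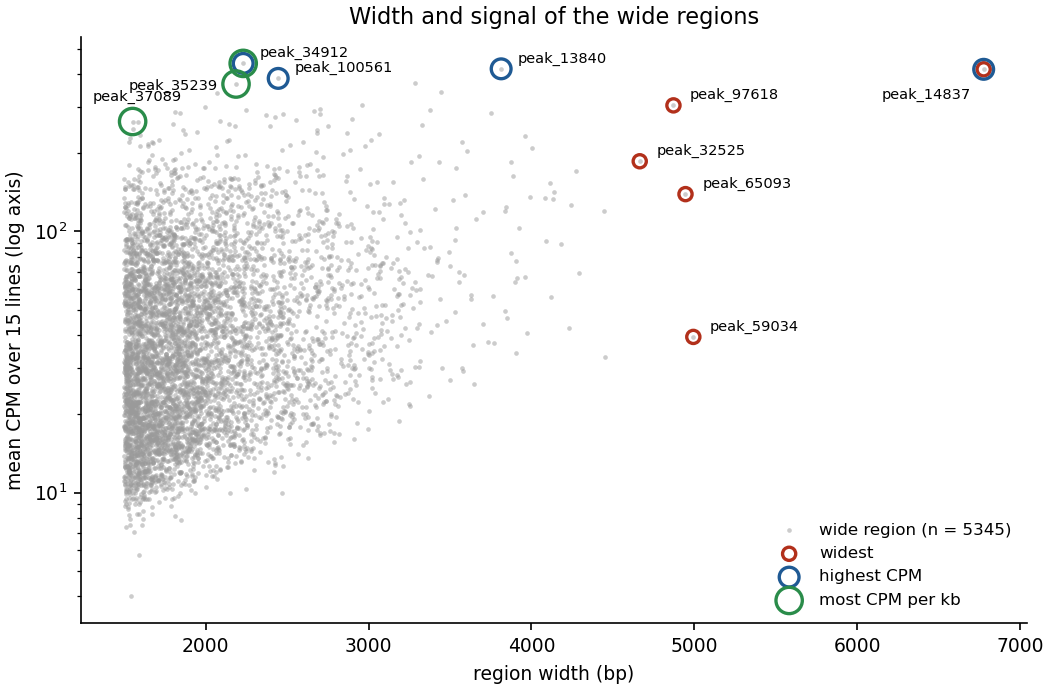
Mean CPM over the 15 lines (log axis) against width in bp for the 5345 wide regions (grey points), with rings around the 5 widest, the 4 with the highest CPM and the 3 with the most CPM per kb. The widest region, peak_14837 at 6777 bp, stands apart to the right at 417.7 CPM, and peak_59034, at 4994 bp, holds only 39.4 CPM.

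The widest region of the set was peak_14837 (chromosome 11, 86389126 to 86395903). It held 417.7 CPM, or 61.6 CPM per kb. The next 4 by width were peak_59034 (chromosome 3, 6297501 to 6302495), peak_65093 (chromosome 4, 55543045 to 55547991), peak_97618 (chromosome 8, 87502336 to 87507208) and peak_32525 (chromosome 15, 74761370 to 74766035), with 39.4, 138.9, 303.9 and 185.6 CPM. The highest total was at peak_34912 (chromosome 15, 101846543 to 101848773), with 440.1 CPM and, at 2230 bp wide, also the highest density of all wide regions (197.3 CPM per kb). After peak_34912, the densest were peak_37089 (chromosome 16, 38088351 to 38089902, 169.97 CPM per kb) and peak_35239 (chromosome 16, 5134841 to 5137027, 167.8 CPM per kb). The other regions of highest total were peak_13840 (chromosome 11, 74643404 to 74647218, 419.5 CPM) and peak_100561 (chromosome 8, 129371629 to 129374074, 385.5 CPM). Over these 10 regions the log2 fold change between metastases and primaries ran from -0.49 to 0.41. Of them 3 were called, against a background of 20.2% of all tested regions, and 10 regions are too few to compare with that share.

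Lines differed widely in depth. Counts in all regions summed to between 285633 (Primary3 replicate 2) and 5916109 (Primary3 replicate 3) per library, and the median wide region held 10 and 205 counts in these libraries. Every wide region held at least 117 counts over the 15 lines. Only 238 wide regions (4.45%) had no count in at least 1 line, against 32.1% of the other regions, and 228 of the 238 were at 0 in Primary3 replicate 2. Across the wide regions, log2 CPM of lines of the same group correlated at r = 0.652 to 0.928. These values were above those across the other regions in every pair except the 2 with Met1 replicate 1. The pairs with Met1 replicate 1 (0.670 and 0.652), Met2 replicate 1 (0.766 and 0.729) and Primary3 replicate 2 (0.728 and 0.751) were the lowest.

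The first comparison was of the total signal in wide regions. In Met2 the wide regions held 24.5%, 26.3% and 25.1% of a library's counts (replicates 1 to 3), and in Met3 25.8%, 26.2% and 26.1%. In Primary2 they held 26.4%, 26.4% and 26.6%, and in Primary3 26.9%, 26.9% and 26.3%. Every metastasis line lay below every primary line of its own round, although Met3 replicate 2 and Primary3 replicate 3 were close (26.24% and 26.26%). The mean was 25.7% ± 0.718 in the metastasis lines and 26.6% ± 0.286 in the primary lines (SD, n = 6 each), a difference of -0.901 percentage points. The 2-sided exact permutation test within rounds gave p = 0.005 (n = 6 each), the smallest it allows, and 0.01 adjusted over the 2 whole-set measures tested. The difference was -1.16 points in round 2 and -0.642 in round 3, and these did not differ beyond the spread (exact permutation p = 0.49). Over both rounds, the difference was -0.847 points without Primary3 replicate 2, the shallowest line. Met2 lines moved it most when left out, to -0.698 points without replicate 1 and -1.14 without replicate 2. Met1, which has no primary lines of its round, held 26.3%, 25.5% and 25.8%, within the range of the later metastasis lines except for replicate 1, which lay above it.

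**Figure D2:**
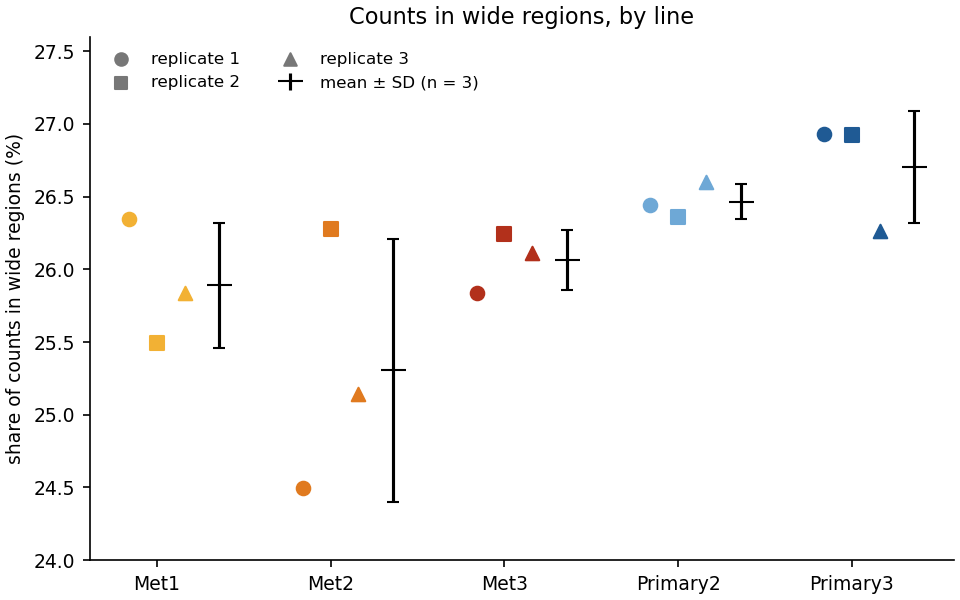
Share of each library's counts that fell in wide regions (%, axis from 24), with 1 point per line (circle, square and triangle for replicates 1, 2 and 3) and the mean ± SD of each group beside it. The Met2 and Met3 lines all lie below the Primary2 and Primary3 lines of the same round, with Met2 the most spread (24.5% to 26.3%).

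The typical wide region differed little. For each line, the median over wide regions of log2 CPM relative to the mean of the 15 lines was taken, and the line's median over all tested regions was subtracted. This value averaged -0.037 ± 0.024 in the metastasis lines and 0.018 ± 0.048 in the primary lines (SD, n = 6 each), a difference of -0.055 (2-sided exact permutation p = 0.015, adjusted 0.015). The groups overlapped here, with the lowest primary line at -0.024 and the highest metastasis line at -0.017. With the replicate number as a block the exact permutation test of this difference gave p = 0.0625 (n = 6 pairs).

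The lower share of wide regions came with a higher share of the narrowest ones. Regions under 500 bp held 7.83% of counts in metastasis lines and 7.08% in primary lines, a difference of 0.752 points (exact permutation p = 0.02 adjusted over 6 width classes, n = 6 lines each). The class of 1500 to 2000 bp held 14.5% and 14.96%, a difference of -0.474 points (exact permutation, adjusted p = 0.02). The class of 3000 bp or more held 1.69% and 1.82%, a difference of -0.130 points (exact permutation, adjusted p = 0.02). The classes between did not pass the test: 500 to 1000 bp differed by 0.594 points (exact permutation, adjusted p = 0.072), 1000 to 1500 bp by -0.445 (0.16) and 2000 to 3000 bp by -0.297 (0.072). Since the shares of a library sum to its whole, a lower share in wide regions and a higher share in narrow ones are not separate results.

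Region by region, the second comparison asked which wide regions set metastasis apart from primary lines over rounds 2 and 3. The test called 1113 of 5345 wide regions (20.8%), against a background of 20.2% of all 39952 tested regions (edgeR quasi-likelihood test, adjusted p under 0.05), a share close to that background. In metastasis lines 534 wide regions (9.99%) were higher, against a background of 11.2%, and 579 (10.8%) were lower, against a background of 8.98%. Which direction was the more frequent within the wide set depended on the scaling: 622 were higher and 534 lower with RLE factors, 662 and 571 with DESeq2, and 474 and 685 by total counts. The higher calls made up a smaller part of the calls in wide regions than in all regions in each of 26 settings, at 40.9% to 53.8% against 50.6% to 59.8%. This comparison of shares was not given a test of its own. The median log2 fold change was -0.00 over wide regions and 0.04 over all tested regions.

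Separation of the lines was also counted without a model. At 263 wide regions (4.92%) every metastasis line lay above every primary line of its round, against a background of 5.77%. At 363 (6.79%) every metastasis line lay below, against a background of 4.96%. Of these, 228 and 327 were also called by edgeR.

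Taken without regard to signal, the changes in wide regions were smaller and more precisely measured than elsewhere. The median absolute log2 fold change was 0.33 over wide and 0.45 over other regions, and the median standard error was 0.25 and 0.37. Of the called wide regions, 555 (49.9%) differed at least 2-fold, whereas 79.5% of the called narrower regions did. At least 4-fold differences were called at 33 higher and 56 lower wide regions (1.67%), against 1153 higher and 675 lower of all tested regions (4.58%). Signal went along with these sizes. All tested regions were split into 10 equal classes by CPM. In class 10, with the most CPM, 21.4% of 1535 wide and 19.7% of 2461 other regions were called. Of these calls, 17.3% and 11.3% were at least 2-fold. Higher calls led in both sets there, with 196 higher and 133 lower in wide regions and 330 and 155 in others. In class 9, 23.2% of 1028 wide regions were called (94 higher, 144 lower), as were 18.5% of 2967 other regions (307 higher, 241 lower). In class 8 the shares were 22.06% of wide (84 higher, 102 lower) and 20.02% of other regions (328 higher, 303 lower). Of the calls, 56.5% and 50.7% were at least 2-fold in class 8, and 41.2% and 36.1% in class 9. In classes 8 to 10 the median absolute log2 fold change was not smaller in wide regions. It was 0.36, 0.31 and 0.255 over wide and 0.32, 0.27 and 0.249 over other regions. In classes 4 to 6 it was 0.51, 0.42 and 0.41 against 0.53, 0.49 and 0.45, and in class 7 it was 0.41 in both. In classes 4 to 7 the share called was lower for wide regions than for the others, at 18.8%, 15.3%, 18.9% and 20.2% against 20.04%, 21.4%, 20.2% and 23.3%, and classes 1 to 3 held few wide regions (1, 1 and 24). The differences within classes were not tested.

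By width class, the share of tested regions called lower rose from 6.85% under 500 bp to 12.6% at 3000 bp or more. The share called higher was 13.4% under 500 bp, 9.59% at 1000 to 1500 bp, 9.60% at 1500 to 2000 bp, 10.5% at 2000 to 3000 bp and 12.6% at 3000 bp or more. In the widest class 52 of 206 regions were called, 26 in each direction. Median signal also rose with width, from 5.82 to 66.0 CPM per region, and its part in these shares was not tested beyond the 10 classes of signal above.

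**Figure D3:**
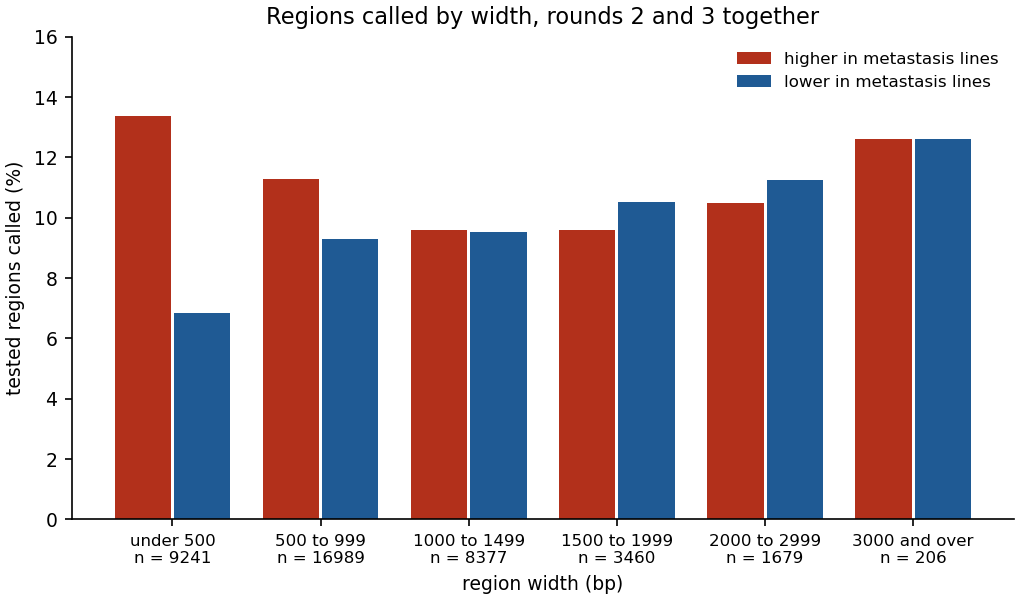
Share of tested regions called higher (red) or lower (blue) in metastasis than in primary lines of rounds 2 and 3 (%), in 6 classes of region width in bp with the number of regions under each. Higher calls lead under 500 bp (13.4% against 6.85%), and the bars are nearly level from 1000 bp on.

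The 6 wide regions with the largest gains in metastasis lines held 15.9 CPM or less in every primary line and 9.92 to 135 CPM in the Met2 and Met3 lines. Regions are named here only where the call came with complete separation of metastasis from primary lines within each round. The largest gain was at peak_68880 (chromosome 4, 138460303 to 138462004, 1701 bp). Its values were 31.7, 76.1 and 59.7 CPM in Met1, 135, 85.6 and 41.9 in Met2, 99.0, 74.0 and 77.0 in Met3, 8.69, 6.56 and 10.5 in Primary2, and 2.80, 6.37 and 4.99 in Primary3. No metastasis line, Met1 included, came near a primary line, and on the log2 scale the gain was 3.82 ± 0.30 (SE), with an edgeR adjusted p of 4.79e-08.

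Next came peak_23249 (chromosome 13, 20252152 to 20254084), with 80.4, 36.8 and 28.7 CPM in Met2, 74.1, 9.92 and 10.4 in Met3, 1.74, 3.28 and 1.61 in Primary2 and 1.40, 0 and 5.503 in Primary3. One Met3 line, replicate 1, carried most of the round 3 gain. Without that line the log2 fold change of rounds 2 and 3 together fell from 3.77 to 2.97. Without Primary3 replicate 3 it was 4.50. At peak_8078 (chromosome 10, 74703241 to 74704925) the values were 40.5, 47.5 and 38.4 CPM in Met2 and 67.4, 42.7 and 30.4 in Met3, against 1.16, 7.66 and 4.84 in Primary2 and 3.50, 0 and 4.99 in Primary3. Met1 was intermediate there, with 22.6, 22.2 and 20.3 CPM, and the log2 fold change was 3.36 ± 0.34 (edgeR adjusted p = 6.75e-07).

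The remaining 3 gains differed in what Met1 did. At peak_91641 (chromosome 7, 111886022 to 111887755) the Met1 lines, at 10.2, 4.44 and 2.98 CPM, were as low as the primaries (2.42 to 15.9 CPM), whereas Met2 held 32.2 to 69.5 and Met3 58.3 to 83.2 CPM. Its log2 fold change over the primaries was 3.34 ± 0.35. At peak_43984 (chromosome 18, 11898933 to 11900566) Met1, with 36.2, 35.2 and 33.4 CPM, was within the range of Met2 (32.2 to 66.4), and the log2 fold change of the later metastases over the primaries was 3.17 ± 0.29. At peak_31531 (chromosome 15, 49984000 to 49985617) the Met1 lines were spread over 22.6, 51.4 and 14.9 CPM, and the log2 fold change was 3.08 ± 0.40. So at 1 of the 6 gains, peak_91641, the metastases of round 1 had primary-like levels. At the other 5 the Met1 mean (19.2 to 55.8 CPM) lay between the primary means and the later metastasis means.

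The 6 largest losses held 18.1 CPM or more in every primary line and 17.9 CPM or less in every Met2 and Met3 line. At peak_60661 (chromosome 3, 78791716 to 78793595) Met2 held 1.33, 4.93 and 2.80 CPM and Met3 1.82, 4.58 and 1.29, against 45.2, 18.1 and 53.2 in Primary2 and 62.6, 19.1 and 41.8 in Primary3. It fell by 3.77 ± 0.41 (log2, SE), with an edgeR adjusted p of 1.48e-06. Replicate 2 was the lowest line in both primary groups, and all primaries lay above every Met2 and Met3 line.

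At peak_97757 (chromosome 8, 89446035 to 89447920) the values were 7.31, 13.5 and 11.2 CPM in Met2 and 3.04, 5.72 and 7.12 in Met3, against 88.6, 73.3 and 93.6 in Primary2 and 87.4, 66.9 and 90.6 in Primary3. The log2 fold change was -3.46 ± 0.35 (edgeR adjusted p = 7.33e-07), with Met1 at 10.2, 4.44 and 33.7 CPM. At peak_25 (chromosome 1, 4660579 to 4662744, 2165 bp) Met2 held 4.65, 17.9 and 15.4 CPM and Met3 1.21, 17.2 and 13.6, against 130.3, 129 and 132 in Primary2 and 119.9, 76.5 and 118 in Primary3. Replicate 1 was the lowest line in both metastasis groups at peak_25, and the log2 fold change was -3.30 ± 0.37.

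The other 3 losses were peak_104278 (chromosome 9, 94310431 to 94312172, log2 fold change -3.39 ± 0.40), peak_5509 (chromosome 1, 184018543 to 184020431, -3.26 ± 0.33) and peak_96111 (chromosome 8, 46669292 to 46670800, -3.22 ± 0.34). In Met1 the means were 8.42, 23.7 and 34.5 CPM at these regions, above the later metastases and below the primaries. At peak_96111 the Met1 lines, at 21.5, 32.7 and 49.2 CPM, came up to the range of the primaries (38.2 to 85.0), and Met2 and Met3 were both lower than Met1 there (log2 fold changes -2.83 and -2.19, edgeR adjusted p = 0.00246 and 0.00419). All 12 regions of largest gain or loss were also called in round 2 alone and in round 3 alone. Their selection made this likely, since it used both rounds and asked for separation in each, so it is no added support.

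**Figure D4:**
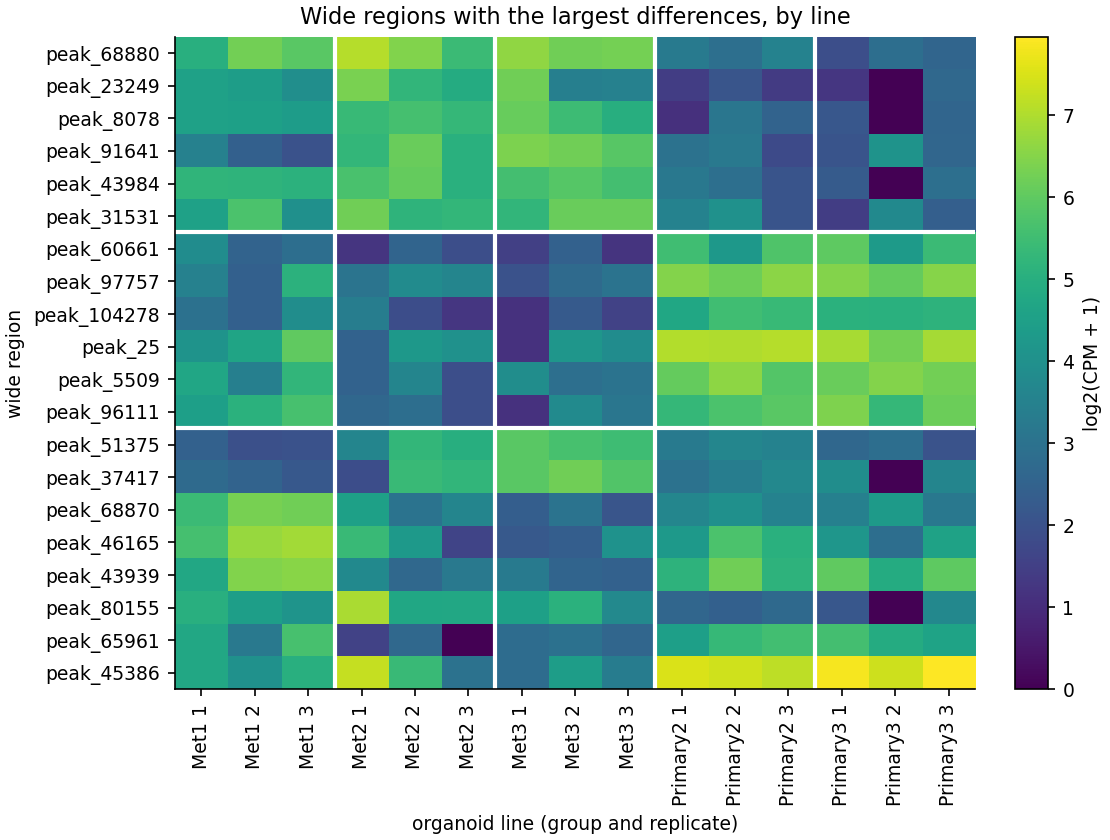
Signal as log2(CPM + 1), by colour, in the 15 lines (columns, by group and replicate) at the 20 wide regions named for a large difference. White lines part the groups, the 6 gains, the 6 losses and the 8 regions named in single contrasts; the gains are dark in the primaries, the losses bright there, and peak_91641, peak_51375 and peak_37417 are dark in Met1.

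In round 2 alone, 394 wide regions (7.37%) were called between Met2 and Primary2, against a background of 6.21%. Of these, 160 were higher in Met2 (2.99%, background 3.44%) and 234 were lower (4.38%, background 2.77%). The counts rested on all 3 Primary2 lines, with 176, 197 and 209 called without replicates 1, 2 and 3, and 233 called when these groups were fitted alone. The largest gain after peak_23249 (log2 fold change 4.38 ± 0.78) was at peak_80155 (chromosome 6, 12698391 to 12700169), where Met2 held 122, 26.0 and 26.6 CPM and Primary2 5.21, 4.38 and 5.65. Met2 replicate 1 stood far above the other lines there, and the log2 fold change of 3.51 ± 0.65 was 2.38 without it. The largest loss was at peak_65961 (chromosome 4, 88740398 to 88741943), with 1.99, 5.38 and 0 CPM in Met2 and 21.4, 38.8 and 46.0 in Primary2, or -3.66 ± 0.67 on the log2 scale (edgeR adjusted p = 0.00249). Without Met2 replicate 2 it was -5.02. The second loss, peak_60661, was at -3.58 ± 0.59, and at -4.18 without that line.

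In round 3 alone, 603 wide regions (11.3%) were called between Met3 and Primary3, against a background of 10.2%. Of these, 290 were higher in Met3 (5.43%, background 5.64%) and 313 lower (5.86%, background 4.52%), a lead that turned with RLE factors (326 higher, 297 lower) and DESeq2 (382 and 349). The count was 285 without Met3 replicate 1, 257 and 312 without Primary3 replicates 1 and 3, and 930 in a fit of only these groups. The largest gains were peak_68880 (log2 fold change 4.28 ± 0.45) and peak_31531 (3.87 ± 0.61). The largest loss was at peak_45386 (chromosome 18, 44631275 to 44633084), one of the stronger regions, with 6.07, 20.6 and 9.06 CPM in Met3 and 229, 162 and 248 in Primary3. The fitted log2 fold change was -4.11 ± 0.66, with an edgeR adjusted p of 0.00075, and -4.85 without Met3 replicate 2. In round 2 the same region was not called, since Met2 was spread over 153, 40.8 and 6.99 CPM, against 181, 164 and 144 in Primary2. The second loss, peak_97757, was at -3.96 ± 0.51.

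Rounds 2 and 3 share no line, so their calls could be laid side by side. Both rounds called 79 wide regions higher, which is 49.4% of those higher in round 2 and 27.2% of those higher in round 3. Both called 141 lower, which is 60.3% and 45.0%. For the narrower regions the shares were 52.7% and 32.6% of the higher and 54.4% and 31.7% of the lower regions. Across the 5345 wide regions the log2 fold changes of the rounds correlated at r = 0.63 (Spearman's rho 0.53), as a description, since regions share their libraries and a single fit. Only 1 wide region was called in opposite directions, peak_33207 (chromosome 15, 80022081 to 80023639), named because of this after its values were seen. Its means were 16.1 CPM in Met2 and 38.1 in Primary2, but 36.6 in Met3 and 16.7 in Primary3, for log2 fold changes of -1.22 and 1.36 (edgeR adjusted p = 0.0432 and 0.0235). The difference between the rounds was not called there (2.58, adjusted p = 0.358).

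A contrast of the metastasis effect in round 3 with that in round 2 gave 0 wide regions by edgeR (background 0). The unadjusted edgeR p was under 0.05 at 388 of 5345 wide regions and at 2568 of all 39952 tested regions. DESeq2 called 5 wide regions, and 15 over all tested regions. Met3 against Met2 was called at 0 wide regions by edgeR (background 0). At an unadjusted p under 0.05 there were 437 wide regions and 2926 over all tested regions, and DESeq2 called 7 and 44. Without Met2 replicates 2 and 3 the edgeR count of Met3 against Met2 was 14 and 7, and 54 and 45 over all tested regions. Primary3 against Primary2 was called at 0 by edgeR (background 0). Here 512 wide regions and 2646 of all tested regions had an unadjusted p under 0.05, and DESeq2 called 11 and 54. A fit of only the primaries called 12, and 34 over all tested regions.

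The last comparison set the metastases of later rounds against those of round 1. The contrasts of Met2 and of Met3 share the Met1 lines, so each is given by itself. Between Met2 and Met1, 201 wide regions (3.76%) were called, against a background of 3.55%, with 128 higher in Met2 (2.39%, background 2.64%) and 73 lower (1.37%, background 0.909%). By total counts the split was 93 and 88, and 86 and 91 after a trend on mean signal was taken out. Leaving out Met2 replicate 1 gave 371 calls, and leaving out Met2 replicate 3 gave 101. The count was 85 and 76 when Met1 replicates 2 and 3 were left out, and 10 in a fit of only these groups.

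Between Met3 and Met1, 600 wide regions (11.2%) were called, against a background of 9.54%, with 355 higher in Met3 (6.64%, background 5.98%) and 245 lower (4.58%, background 3.56%). By total counts the split was 264 higher and 337 lower, and this scaling moved the median of all tested regions from -0.04 to -0.17. With a trend on mean signal removed it was 214 and 311. The count was 351 and 344 without Met1 replicates 2 and 3, and 301 and 344 without Met3 replicates 1 and 2.

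The largest gain of Met3 over Met1 was at peak_51375 (chromosome 2, 19855565 to 19857166), with 4.53, 2.85 and 2.98 CPM in Met1, 11.3, 37.7 and 30.8 in Met2 and 60.1, 49.2 and 43.4 in Met3. Met1 lay below every primary line but 1 (Primary2 8.69 to 11.49, Primary3 3.10 to 6.37), and on the log2 scale Met3 exceeded Met1 by 3.96 ± 0.47 (SE), with an edgeR adjusted p of 3.05e-05. Then came peak_91641 (3.85 ± 0.49) and peak_37417 (chromosome 16, 55527179 to 55528952, 3.81 ± 0.63), where Met1 held 5.66, 4.76 and 3.58 CPM and Met3 60.1, 74.0 and 55.0. At peak_37417 the Met2 lines were split, with 2.66 CPM in replicate 1 and 41.2 and 36.3 in replicates 2 and 3.

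Among the largest losses from Met1 to Met3 was a region at which the primaries were low as well. At peak_68870 (chromosome 4, 138381849 to 138384139, 2290 bp) Met1 held 41.9, 79.0 and 74.3 CPM and Met3 4.25, 7.25 and 3.24, with 21.9, 7.17 and 11.2 in Met2 and 8.08 to 19.1 in the primaries. The Met1 lines lay above all others there, and the log2 fold change of Met3 over Met1 was -3.67 ± 0.46 (edgeR adjusted p = 4.95e-05). Less than 100 kb further along chromosome 4 lies peak_68880, the largest gain of metastases over primaries, at which Met1 was also high.

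At peak_46165 (chromosome 18, 63755251 to 63757795, 2544 bp) Met1 held 47.6, 105 and 114 CPM and Met3 3.64, 4.20 and 15.5, a log2 fold change of -3.59 ± 0.65, or -4.49 without Met3 replicate 3. At peak_43939 (chromosome 18, 11051592 to 11053497) Met1 held 26.0, 86.0 and 92.5 CPM and Met3 8.50, 4.96 and 4.53, a log2 fold change of -3.55 ± 0.48. Met1 replicate 1 was the lowest Met1 line at all 3 of these losses. The primaries of rounds 2 and 3 were high at peak_43939 (28.7 to 74.9 CPM) and lower at peak_46165 (6.37 to 51.4 CPM).

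Part of the difference from Met1 ran along with signal density. Wide regions were parted into 4 density classes of equal number by mean CPM per kb, a split chosen after the data had been seen and computed from the same 15 lines. From the sparsest to the densest class, Met3 was called higher than Met1 at 7, 55, 75 and 218 wide regions and lower at 77, 94, 63 and 11. For Met2 the calls were 1, 24, 31 and 72 higher and 25, 23, 22 and 3 lower. Called gains of Met3 were thus most numerous in the densest class (32.3 to 197.3 CPM per kb) and losses in class 2. As shares, 0.524%, 4.12%, 5.61% and 16.3% of wide regions were higher in Met3, against 0.689%, 3.27%, 6.86% and 11.7% of narrower regions within the same density limits. Lower in Met3 were 5.76%, 7.04%, 4.72% and 0.823% of wide and 4.998%, 3.74%, 3.62% and 1.71% of narrower regions. For Met2 the shares called were 1.94%, 3.52%, 3.97% and 5.61% of wide and 1.22%, 2.08%, 4.42% and 5.95% of narrower regions. The share called higher in Met3 thus rose with density in narrower regions as well, and the difference between the sets was not tested.

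Met1 replicate 1, the second shallowest library with 790233 counts, moved with this order, and the part of depth was not tested. Its median relative log2 CPM was 0.81, 0.22, -0.18 and -0.51 in the 4 classes, whereas Met1 replicates 2 and 3 lay between -0.09 and -0.02 in all of them. Narrower regions of the same density showed the same course in that line, with 0.85 at 5 to 10 CPM per kb and -0.56 above 50, against 0.87 and -0.60 in wide regions. Without Met1 replicate 1, Met3 was called higher than Met1 at 17, 71, 73 and 139 wide regions and lower at 67, 93, 72 and 22. The median log2 fold change of Met3 over Met1 in the sparsest class went from -0.42 to -0.06 without that line, and in the densest from 0.24 to 0.10. For Met2 the calls without it were 8, 37, 25 and 50 higher and 19, 24, 27 and 6 lower.

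Primary3 replicate 1 had the opposite course, with -0.42 in the sparsest class and 0.05, 0.16 and 0.13 in the next 3. Without it, Met3 was called higher than Primary3 at 8, 27, 46 and 45 wide regions and lower at 24, 39, 47 and 21. With it these counts were 43, 76, 89 and 82 higher and 58, 96, 102 and 57 lower, or 7.55%, 12.9%, 14.3% and 10.4% of wide regions, against 4.56%, 9.55%, 13.0% and 11.03% of narrower ones. For both rounds together the sparsest class held 84 higher and 105 lower calls (14.1% of it, against 11.3% of narrower regions), and 50 and 91 without Primary3 replicate 1. By lines, the metastasis and primary medians of rounds 2 and 3 differed in class 2 (-0.12, 2-sided exact permutation p = 0.04 adjusted over 4 classes, n = 6 each). In classes 1, 3 and 4 the differences of -0.064, -0.057 and 0.0088 did not pass (exact permutation, adjusted p = 0.573, 0.15 and 0.77).

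**Figure D5:**
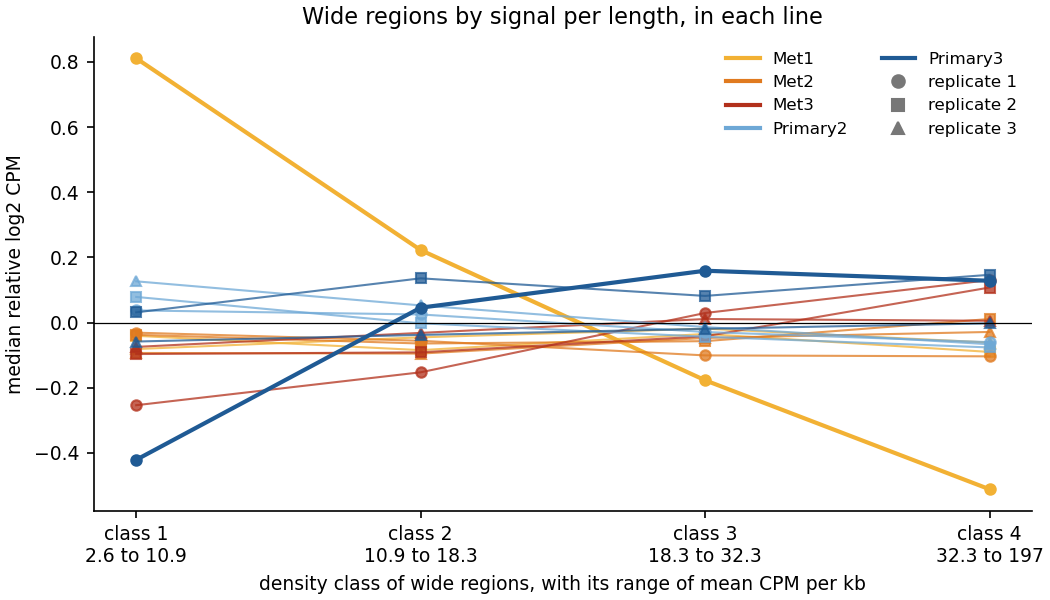
Median relative log2 CPM of wide regions in each of the 15 lines (1 curve per line, coloured by group, with a marker for the replicate), in 4 classes of wide regions by mean CPM per kb, with the range of CPM per kb under each class. Met1 replicate 1 runs from 0.81 to -0.51 and Primary3 replicate 1 starts at -0.42 (both drawn thicker), while the other 13 lines stay between -0.25 and 0.15.

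Where 1 line stood far above all others at a wide region, it was mostly the same library. At 161 of the 5345 wide regions 1 line lay more than 2-fold above all others. The same count was not taken over the narrower regions. Met1 replicate 1 was that line at 116 of them, 73 of which were in the sparsest class, and Met2 replicate 1 was it at 32. Primary3 replicate 2 was it at 5. No wide region had its single high line in Met1 replicates 2 or 3, nor in Met2 replicate 2, Met3 replicate 3 or Primary2 replicates 2 and 3.

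Among the 5 widest regions, peak_14837 was called higher and peak_97618 lower in metastasis lines. At peak_14837 Met2 held 345, 447 and 392 CPM and Met3 477, 763 and 454, against 374, 411 and 344 in Primary2 and 349, 328 and 333 in Primary3. Met3 replicate 2 was the highest line and Met2 overlapped Primary2. The log2 fold change was 0.41 ± 0.13 (edgeR adjusted p = 0.0322), and the call was lost without Met2 replicate 2, Met3 replicate 2, Primary2 replicate 1 or 3, or any of the Primary3 lines, with log2 fold changes of 0.26 to 0.42. With a trend on signal taken out it was 0.20 and not called.

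At peak_97618 Met2 held 201, 279 and 222 CPM and Met3 293, 297 and 281, against 361, 338 and 340.4 in Primary2 and 364, 376 and 423 in Primary3. No metastasis line reached a primary line, and the log2 fold change was -0.49 ± 0.11 (edgeR adjusted p = 0.00351). With each library's chromosome medians removed it was -0.20 and not called (adjusted p = 0.215). The other 3 of the 5 widest were not called: peak_32525 at 0.39 ± 0.14 (edgeR adjusted p = 0.0552), peak_59034 at 0.17 ± 0.32 (0.769) and peak_65093 at 0.17 ± 0.13 (0.424). At peak_59034 Met1 replicate 1, with 96.2 CPM, lay above every other line (10.8 to 56.5 CPM).

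The named regions of strongest signal showed modest differences between metastases and primaries. At peak_100561 Met2 held 336, 353 and 317 CPM and Met3 356, 349 and 379, against 436, 482 and 437 in Primary2 and 488, 411 and 561 in Primary3. The metastasis lines all lay below the primaries, or -0.43 ± 0.14 on the log2 scale (edgeR adjusted p = 0.0326). It was not called without Met2 replicate 3, any Met3 line, any Primary2 line or Primary3 replicate 1 or 3, nor with chromosome medians removed (-0.14). The regions peak_34912, peak_35239, peak_37089 and peak_13840 were not called, with log2 fold changes of 0.35, 0.27, 0.19 and 0.07. At peak_35239 Met2 and Met3 were higher than Met1 (0.86 and 0.94, edgeR adjusted p = 0.0144 and 0.0037), with Met1 at 186, 204 and 311 CPM and Met3 at 435 CPM or more.

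Wide regions lay on every autosome and on X. Chromosome 11 had the largest number and share, with 429 of its 2803 regions (15.3%), and X the smallest, with 107 of 1032 (10.4%), and neither of the 2 regions on Y was wide. In rounds 2 and 3 together the direction of calls differed by chromosome. On chromosome 18, 10 wide regions were higher and 55 lower of 180, and on chromosome 8, 5 were higher and 72 lower of 246. These are 36.1% and 31.3% of the wide regions there, against 27.5% and 24.6% of the narrower regions there. Chromosomes 2, 3 and 11 also held more losses than gains (60, 39 and 62 against 22, 11 and 14). Gains led on chromosome 1 (67 against 25), chromosome 5 (60 against 15), chromosome 6 (48 against 10), chromosome 9 (50 against 19) and chromosome 10 (40 against 16). On these 8 chromosomes, in numerical order, 29.0%, 21.3%, 19.2%, 20.4%, 20.4%, 24.4%, 21.6% and 17.7% of the wide and 24.5%, 19.3%, 20.5%, 18.9%, 22.7%, 22.2%, 22.7% and 16.7% of the narrower regions were called.

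The narrower regions of these chromosomes were shifted alike. The median log2 fold change was -0.44 over wide and -0.40 over other regions on chromosome 18, and -0.38 and -0.28 on chromosome 8. On chromosome 1 the medians were 0.25 and 0.31, on chromosome 5 0.23 and 0.27, and on chromosome 6 0.15 and 0.25. With each library's chromosome medians removed, 1063 wide regions were still called over the whole set, 465 higher and 598 lower. Whether such shifts come from the number of chromosome copies in a line was not tested. Without chromosomes 8 and 18 the share of counts in wide regions differed by -0.862 points between metastasis and primary lines (exact permutation p = 0.015, n = 6 each).

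Close neighbours had similar log2 fold changes. For 616 wide regions with the nearest tested region less than 2000 bp away, the log2 fold changes of the pair correlated at r = 0.58, and 86.5% of the 141 called among them had a neighbour of the same sign. At 2000 to 5000 bp the correlation was 0.46 (1135 regions), at 5000 to 20000 bp 0.41 (2410 regions) and beyond 20000 bp 0.27 (946 regions), with 82.8%, 80.6% and 67.3% of the called regions matched in sign. These are descriptions across regions, which share libraries and chromosome-wide shifts. The same values were not taken for narrower regions and their neighbours.

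Joined where the gap was at most 100 kb, the wide regions formed 2991 chains, of which 1822 held a single region. The longest chain held 15 wide regions (chromosome 4, 149955903 to 150296694), with 2 called higher and 1 lower. Within the chains, 3 runs of 4 neighbouring wide regions were all called, and all 3 runs were lower in metastasis lines. They are named because the count was small, after their values were seen.

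The run on chromosome 11 (108613431 to 108772612) held peak_16676, peak_16681, peak_16683 and peak_16691. Its strongest change was at peak_16683 (108719553 to 108721551), with means of 11.8 CPM in Met2 and 5.23 in Met3 against 54.6 in Primary2 and 72.6 in Primary3 and a fitted change of -2.98 (log2, edgeR adjusted p = 7.33e-07). The remaining 3 regions of that run had log2 fold changes of -2.16 to -0.66. Met1 held 45.0 CPM at peak_16683, near the primaries.

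The run on chromosome 15 (79780651 to 79893781) had log2 fold changes of -1.69 to -0.75, the largest at peak_33188 (79891622 to 79893781), with 45.0 CPM in Met2 and 38.2 in Met3 against 137.5 in Primary2 and 129.6 in Primary3. It ends less than 200 kb before peak_33207, the region with opposite calls in the rounds. The run on chromosome 18 (62068649 to 62177399) had log2 fold changes of -1.59 to -0.60, all beyond the median of that chromosome's wide regions (-0.44). Its strongest loss was at peak_46103 (62175457 to 62177399), where Met1 (10.7 CPM), Met2 (13.4) and Met3 (14.5) were all far below Primary2 (42.4) and Primary3 (41.1).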

How the data were processed

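Chromatin accessibility (ATAC-seq) was analysed from the deposited table of whole-number counts per region and library, with 15 libraries and 43020 regions. Per the submitters' processing notes, the mm9 build and the tools MACS2, Bowtie, bedtools, SAMtools and Picard belong to the authors' processing. The sources used here give no roles, versions, duplicate removal or shift of reads for the transposase. The region set is shared by all libraries, so widths do not vary by line. Per the labels' protocols, organoids were dissociated with TrypLE and tagged with TDE1. Groups and replicate numbers came from the sample titles.

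Regions with end minus start of 1500 bp or more were taken as wide. Counts of all regions were tested with edgeR 4.0.16 (limma 3.58.1, R 4.3.3): filterByExpr (minimum count 10, total 15), TMM scaling, 1 robust quasi-likelihood fit of 5 group means to all 15 libraries, and Benjamini-Hochberg adjustment over 39952 tested regions, called under 0.05. Log2 CPM used a prior count of 2. Measures with 1 value per line were compared by exact 2-sided permutation of the lines inside each round (400 assignments). No molecular identifiers are stated, so reads may not be independent molecules. Summaries were made in Python 3.11.15 with pandas 2.3.3, numpy 2.4.6 and scipy 1.17.1, and plots with matplotlib 3.10.9. The fit was also run on simulated counts with changes planted in regions at or above the median signal. Those counts held no trends of single lines and no chromosome-wide shifts, so the run does not bear on these.

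Named regions followed a rule: the 6 largest and 6 smallest fold changes in rounds 2 and 3 together, 3 per direction in Met3 against Met1 and 2 per direction in each round, among called wide regions with no overlap of the lines compared within a round, plus the 5 widest, the 4 with the highest CPM, the 3 with the most CPM per kb and 2 on each side of the threshold. The members, lists and tests were chosen with earlier results of these data known.

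Alternatives were RLE factors, total counts, DESeq2 1.42.0, no filter, a stricter filter (minimum count 30), separate fits of the groups compared, a block for the replicate number, removal of chromosome medians or of a lowess trend on signal (span 0.3), leaving out the 2 shallowest libraries or each library in turn, and width thresholds of 1250 and 2000 bp. For whole-set measures they were the mean in place of the median, a prior count of 5, and leaving out chromosomes 8 and 18. Shares by width class and density classes, with narrower regions split at the same limits, were added after the data had been seen.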

Additional observations from a re-analysis of the deposited data

Results flagged for a closer look

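In 4 of 12 sets of lines examined (the 9 metastasis or the 6 primary lines, for each of 6 whole-set measures), 1 line lay further from the rest than Dixon's limit allows at 95%. About 1 set in 20 passes that limit by chance, or 0.6 of 12. All 4 concern the 4 classes of wide regions by CPM per kb and are therefore not independent of one another. Met1 replicate 1 had a median relative log2 CPM of 0.81 in the sparsest class, where the other metastasis lines lay between -0.25 and -0.03. In class 2 it stood at 0.22, and in the densest class at -0.51. Primary3 replicate 1 stood at -0.42 in the sparsest class, where the other primary lines lay between -0.06 and 0.13. Met1 replicate 1 was the second shallowest library, with 790233 counts, whereas Primary3 replicate 1 held 3051139. The part of depth in these values was not tested.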

How the results depend on the processing

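The number of wide regions called between metastasis and primary lines in rounds 2 and 3 together stayed within 1.5 times the value reported under every alternative run, from 1020 to 1233, and was 834 or more with each library left out. For Met2 against Primary2 a fit of only these groups called 233, and leaving out each library gave 176 to 491. For Met3 against Primary3 the values were 930 and 257 to 781, and for Met2 against Met1 they were 10 and 76 to 371. Met3 against Met1 ranged from 301 to 806 with each library left out. Met3 against Met2 had 7 calls by DESeq2 and 0 to 14 with libraries left out. Primary3 against Primary2 had 12 in a fit of only these groups, 11 by DESeq2 and 0 to 1. The difference between the rounds had 1 call with chromosome medians removed, 5 by DESeq2 and 0 to 3. The causes were not tested. Of 900 alternative values of named regions, 865 kept direction and call, 14 gained and 19 lost a call, and 2 regions without a call changed sign: peak_59034 without Primary3 replicate 1 (-0.049; range -0.049 to 0.44 over libraries left out) and peak_13840 with the trend on signal removed (-0.13).

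Same-numbered lines deviated together only weakly, with correlations of -0.03 to 0.09. The labels do not say that a number is shared across groups, and these correlations cannot settle whether lines were paired. With the replicate block, 1020 wide regions were called in both rounds together, 332 in round 2, 527 in round 3, 157 for Met2 and 544 for Met3 against Met1, and 0 in the other 3 contrasts. The replicate block left the difference in share at -0.901 points (exact permutation p = 0.0312, n = 6 pairs) and that in the median at -0.055 (exact permutation p = 0.0625). The median wide region held 10 counts in Primary3 replicate 2, the fewest of the 15 libraries.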
